A study of Mus musculus with 21 samples.

Results

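Embryoid bodies (EB) are free-floating aggregates in which pluripotent cells differentiate without a directed signal. The probes described here were brighter in whole day 16 EB than in undifferentiated cells and in selected cardiomyocytes. This held both in an induced pluripotent stem (iPS) line and in an embryonic stem (ES) line. A probe was taken when it was detected (detection p under 0.01) on all 6 EB arrays and when, in each line, its mean log2 intensity in EB lay at least 1 above the means of that line's undifferentiated cells and of its cardiomyocytes (CM). Of 45281 probes on the mouse bead array, 14071 were detected on all 6 EB arrays and 134 met the rule. These 134 probes include 114 that the platform annotation pairs with 93 genes and 20 that it does not name. The members were thus selected on the measured intensities of EB, undifferentiated cells and CM, so that their excess in EB over those cells is a description and was not tested.

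The arrays fall into groups of 3. Whole EB of the aPIG TiB7.4 iPS line and of the aPIG D3 ES line were harvested on day 16 without drug. CM came from the same batches of each line after puromycin at 8 µg/ml from day 9, and were also taken on day 16. Undifferentiated iPS cells and ES cells had been grown with LIF on growth-arrested embryonic fibroblast feeders. Fibroblasts were cultured from the tail tips of adult mice, 8 weeks old, of the F1 cross 129Sv x c57BL6, and their 3 arrays were averaged to 1 sample. The design text calls these arrays technical replicates, while their labels give passages 2, 3 and 4, and which holds was not settled. Both stem cell lines carry the aPIG transgene at every stage, in which a cardiac myosin heavy chain promoter drives puromycin resistance and a green fluorescent protein. Each cell type is 1 line at 3 passages (5, 7 and 8 for iPS, 7, 9 and 10 for ES), so differences between lines concern these 2 lines. EB hold many cell types in unknown proportions, and in such bulk RNA fewer cells of a type and less RNA per cell cannot be told apart.

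During spontaneous differentiation in EB, an outer layer of extraembryonic endoderm surrounds an inner mass that gives rise to neural, mesodermal and epithelial derivatives. Visceral endoderm secretes carriers such as transthyretin and apolipoproteins, early neural tissue switches on regional transcription factors and axon guidance genes, and simple epithelia assemble keratins 8 and 18. Imprinted genes such as Dlk1, Mest and Peg3 are expressed from 1 parental copy and are abundant in growing embryonic tissue.

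Values are log2 intensities after background correction and quantile normalization (an offset keeps undetected probes near 4), unless the rule's own scale is named. A probe is called different where limma's adjusted p is under 0.05 over all 21047 tested probes. Detected probes per array numbered 13231 to 17866, with 16543 to 17600 on iPS EB arrays, 16227 to 17866 on ES EB arrays, 14416 to 15509 on iPS CM arrays, 14246 to 14964 on ES CM arrays, 15560 to 15884 on iPS arrays, 13231 to 16607 on ES arrays and 15508 to 16592 on fibroblast arrays. The rows of the deposited normalized table equal the quantile normalized rows of the non-normalized table, but under other identifiers. Cardiomyocyte, pluripotency and fibroblast markers were high in their own cells under the identifiers of the non-normalized table, which name all genes here.

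RefSeq promoters (GRCm38.p6, 250 bases before to 50 after the gene's start) were at hand for 62 of the 93 genes. Those of 4 members are shown because they stand for the transcription factor (Zic1, Lhx1), endoderm (Foxa1) and keratin (Krt8) groups described below. Zic1 lies on chromosome 9 (91365719 to 91366018), Lhx1 on chromosome 11 (84525485 to 84525784), Foxa1 on chromosome 12 (57546062 to 57546361) and Krt8 on chromosome 15 (102004293 to 102004592), each on the minus strand. Capitals mark 4 motifs on either strand. They are the GC box, spelled GGGCGG, the CCAAT box with just these letters, the common TATA box spelling TATAAA, and the core letters of SOX factor sites, ACAAAG.
Zic1: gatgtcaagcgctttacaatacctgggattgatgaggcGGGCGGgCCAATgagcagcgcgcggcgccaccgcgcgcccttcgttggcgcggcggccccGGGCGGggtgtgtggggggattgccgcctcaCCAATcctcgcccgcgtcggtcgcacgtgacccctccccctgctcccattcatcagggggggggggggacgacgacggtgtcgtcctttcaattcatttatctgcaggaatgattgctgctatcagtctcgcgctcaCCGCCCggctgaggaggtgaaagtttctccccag
Lhx1: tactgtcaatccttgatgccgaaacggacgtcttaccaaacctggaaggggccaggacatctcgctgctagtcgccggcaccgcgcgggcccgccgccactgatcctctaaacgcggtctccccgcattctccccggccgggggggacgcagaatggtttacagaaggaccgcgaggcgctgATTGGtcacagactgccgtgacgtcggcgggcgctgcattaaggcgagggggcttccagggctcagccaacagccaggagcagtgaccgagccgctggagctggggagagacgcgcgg
Foxa1: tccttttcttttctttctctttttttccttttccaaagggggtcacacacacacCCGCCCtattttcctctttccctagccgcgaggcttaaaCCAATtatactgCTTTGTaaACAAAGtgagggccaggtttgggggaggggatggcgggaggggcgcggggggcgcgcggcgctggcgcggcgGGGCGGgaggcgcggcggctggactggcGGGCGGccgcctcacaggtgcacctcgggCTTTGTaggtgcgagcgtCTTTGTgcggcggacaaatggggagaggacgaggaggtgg
Krt8: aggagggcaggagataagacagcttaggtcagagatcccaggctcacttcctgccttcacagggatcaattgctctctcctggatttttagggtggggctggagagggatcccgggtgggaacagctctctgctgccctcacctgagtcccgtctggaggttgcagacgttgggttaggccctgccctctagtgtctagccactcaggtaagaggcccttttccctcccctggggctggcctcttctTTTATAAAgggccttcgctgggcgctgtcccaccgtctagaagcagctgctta
The Zic1 promoter holds 3 GC boxes, 2 CCAAT boxes and 31 CpG, and that of Lhx1 holds 1 CCAAT box and 31 CpG. The Foxa1 promoter holds 4 SOX core motifs, 3 GC boxes and 1 CCAAT box, and that of Krt8 holds 2 overlapping TATA boxes on opposite strands with 6 CpG. No other matches overlapped in these 4. Among the 62 member promoters 56.5% held a GC box, 37.1% a CCAAT box, 24.2% a SOX core motif and 19.4% a TATA box. Over 6844 promoters of genes with an EB-detected probe the shares were 67.9%, 39.9%, 13.1% and 7.04% for the same motifs in that order, and over all 27025 promoters they were 35.9%, 37.9%, 18.7% and 14.2%. The median number of CpG was 19 in member promoters, 22 in those of EB-detected genes and 7 in all promoters. A match describes the letters and is not evidence of a bound site.

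The rule was met by 274 probes when read in the iPS line by itself and by 284 in the ES line by itself, and the 134 members are 48.9% of the iPS list and 47.2% of the ES list. Read in the other line, 255 of the 274 iPS probes (93.1%) still had EB above both undifferentiated cells and CM in the ES line, with a median excess of 0.99 on the rule's scale. Of the 284 ES probes, 238 (83.8%) did so in the iPS line, with a median of 0.95. Among all EB-detected probes the shares were 24.3% for the iPS line and 24.2% for the ES line. The 2 lines share no samples. Both lists, like the EB-detected background, were limited to probes detected on the EB arrays of both lines, and all arrays were normalized together. The other line's EB arrays thus had a part in each list, and these shares are a description.

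Just inside the threshold lay an unnamed probe, ILMN_1232107 (smaller excess of the lines 1.0005), Astn1 (1.0006) and Rtn1 (1.0008). Just outside lay Traf4 (0.9982), the unnamed ILMN_1235602 (0.9948) and Cd93 (0.9935). For 17 genes several probes were members. For 75 of the 93 genes every probe detected on all EB arrays was a member, while 18 genes had an EB-detected probe that missed the rule. In Nsd2 and Tpm4 one such probe did not exceed both of the other cell types (lowest excess -0.05 for Nsd2 and -0.41 for Tpm4).

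All 134 members were called higher in iPS EB than in iPS CM (29.6% of all tested probes were) and than in iPS cells (18.8%). In the ES line 134 were called higher in EB than in CM (31.0%) and 133 higher in EB than in ES cells (16.6%). The rule fixed these counts and nothing is read from them. The median member lay at 7.71, 7.05 and 7.53 on the iPS EB arrays and at 7.15, 7.09 and 7.16 on the ES EB arrays. It lay between 4.37 and 4.53 on iPS CM arrays, between 4.43 and 4.46 on ES CM arrays, between 4.96 and 5.34 on iPS arrays, between 4.49 and 4.69 on ES arrays and between 4.90 and 5.11 on fibroblast arrays. The level of the median member thus overlapped between EB of the lines and was higher on every iPS array than on any ES array.

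Outside EB, many members were not detected at all. The rule held members low on the 12 arrays of undifferentiated cells and CM, which favours this, so the shares are a description. Members detected on none of a group's arrays numbered 66 in iPS CM, 76 in ES CM, 42 in iPS cells, 58 in ES cells and 48 in fibroblasts. Those detected on all 3 arrays of a group numbered 47, 46, 77, 49 and 72 in the same order. On none of the 15 arrays outside EB were 18 members detected (13.4%, against 0.455% of all EB-detected probes), and 21 were detected on all 21 arrays (15.7%, against 66.3%). The 18 include Emcn (endomucin, an endothelial surface protein), Apoa1 (the main apolipoprotein of high-density lipoprotein), the forebrain transcription factor Fezf1, the neural progenitor factors Dbx1 and Rfx4, Dcx (doublecortin, of migrating neurons), Astn1 and Slc17a6 (a vesicular glutamate transporter). They also include Pantr1 (a long noncoding RNA), Tmem204, Nxf7, both Defa31 probes and 5 unnamed probes. Defa31 belongs to a family of near-identical defensin genes, so which copy its probes measured is uncertain.

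Imprinted genes gave 8 member probes from 4 genes (Dlk1, Mest, Peg3 and Nnat). Dlk1, a membrane protein of the Notch ligand family that restrains differentiation, had the largest excess in EB on the rule's scale (4.72 in the iPS line and 3.55 in the ES line). Its level was 11.67, 11.81 and 12.23 in iPS EB and 11.08, 11.05 and 11.30 in ES EB. It was 5.10, 4.51 and 4.88 in iPS CM, 4.77, 4.78 and 4.83 in ES CM, 7.58, 6.83 and 6.89 in iPS cells, 7.55, 7.78 and 7.26 in ES cells, and 6.80, 6.85 and 6.15 on the fibroblast arrays. Every EB array stood far above all others, and every iPS EB array above every ES EB array. The Mest probe ILMN_2846904 (Mest encodes a hydrolase-like protein) had 10.32, 9.57 and 10.48 in iPS EB and 10.04, 9.55 and 9.98 in ES EB, against 5.74, 5.50 and 5.43 on the fibroblast arrays. Its EB values overlapped between lines.

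Transcription factors gave 26 probes from 22 genes. Sox9, which directs chondrocyte, neural crest and glial fates, had 9.60, 9.00 and 9.96 in iPS EB and 9.36, 9.55 and 9.76 in ES EB. It had 4.97 ± 0.19 in iPS CM, 5.91 ± 0.09 in ES CM, 6.00 ± 0.33 in iPS cells and 5.71 ± 0.64 in ES cells (SD, n = 3 each). The EB values of the lines overlapped and lay above all of those. Fibroblast arrays had 8.73, 8.51 and 8.52 for Sox9. Zic1, a zinc finger factor of the dorsal neural tube, had 9.06, 7.01 and 6.97 in iPS EB and 7.26, 7.88 and 7.82 in ES EB and was not detected on any undifferentiated or CM array. On that bound it was at least 7.73-fold higher in iPS EB than in iPS CM and at least 7.30-fold higher in ES EB than in ES CM. Otx1, a forebrain factor, had 8.94, 7.54 and 8.48 in iPS EB and 7.08, 7.55 and 7.73 in ES EB, and no ES CM, ES or fibroblast array detected it.

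Neuronal and guidance genes gave 21 probes from 16 genes, and 14 of these probes were detected on all 3 fibroblast arrays. Slit2, a secreted repellent of growing axons, had 9.43, 8.29 and 9.13 in iPS EB and 7.65, 7.85 and 8.29 in ES EB by probe ILMN_1253797. On the fibroblast arrays this probe had 8.44, 8.75 and 8.67. Map2, a dendrite microtubule protein, had 8.94, 7.51 and 8.12 in iPS EB and 7.97, 7.76 and 7.71 in ES EB. Dcx had 6.68, 5.14 and 5.86 in iPS EB and 5.93, 5.80 and 5.95 in ES EB. The iPS EB cultures were spread more widely than the ES EB cultures for these last genes. Other members with a large excess were Miat (a long noncoding RNA, 7.98 ± 1.07 in iPS EB and 8.53 ± 0.17 in ES EB), Ildr2 (7.75 ± 0.99 and 7.19 ± 0.07 in that order), Amer2, a regulator of WNT signalling (7.42 ± 0.79 and 7.08 ± 0.27), and Megf10, an engulfment receptor (7.12 ± 0.64 and 7.28 ± 0.45; SD, n = 3 each).

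Endoderm and keratin members were few. Ttr (transthyretin) had 7.16, 8.79 and 10.63 in iPS EB and 9.59, 8.23 and 8.87 in ES EB and was not detected in undifferentiated cells of either line, which makes it at least 18.5-fold higher in iPS EB than in iPS cells and at least 16.5-fold higher in ES EB than in ES cells. Apoa1 had 5.11, 7.14 and 7.53 in iPS EB and 7.37, 6.70 and 6.66 in ES EB. For both genes the iPS EB cultures spanned the whole ES EB range. Spink1, a trypsin inhibitor made by visceral endoderm and pancreas, had 11.49, 11.96 and 11.33 in iPS EB and 9.97, 9.71 and 9.68 in ES EB. Krt14, a basal epithelial keratin, had 7.51, 7.69 and 8.34 in iPS EB and 9.84, 7.94 and 8.17 in ES EB.

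Mesenchyme and matrix genes gave 10 probes from 8 genes, endothelial genes 2 probes (Emcn and Ramp2, a receptor modifying protein) and signalling and cell cycle genes 9 probes from 6 genes. Col3a1 (a fibrillar collagen) had 7.08, 6.06 and 7.16 in iPS EB and 7.10, 6.59 and 7.34 in ES EB, and Pdgfra, a growth factor receptor of mesenchymal cells, had 7.61 ± 0.67 in iPS EB and 7.67 ± 0.09 in ES EB. Ramp2 had 7.98 ± 0.36 in iPS EB and 8.26 ± 0.23 in ES EB (SD, n = 3 each). All of these overlapped between lines. The remaining 29 named probes were placed in no role group.

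Of the marker lists, those of pluripotency (27 tested probes), cardiomyocyte (35), macrophage and leukocyte (18), erythroid (6) and smooth muscle (6) markers held no member. Members found in the lists were Spink1, Ttr, Apoa1 and Foxa1 (visceral endoderm, 4 of 24 tested probes), Col3a1, Lum and Pdgfra (mesenchyme, 4 of 28), Plat (parietal endoderm, 1 of 14), Emcn and Ramp2 (endothelial, 2 of 15), Map2 and Dcx (neural, 2 of 14), and Krt8 and Krt18 (epithelial, 2 of 8). The other tested probes of these lists missed the rule, and some of them were lower in EB than in undifferentiated cells.

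Differences between EB of the 2 lines were not used by the rule and were tested. In iPS EB, 34 members (25.4%) were higher than in ES EB and 7 (5.22%) lower, where 12.8% of all tested probes were higher and 12.9% lower (25.7% in either direction). The median difference was 0.27 over the members and 0.01 over all tested probes. Of these members 27 were higher and 5 lower without overlap between the arrays, against 11.7% and 11.6% of all tested probes. The 34 higher probes belong to 25 named genes and the 7 lower ones to 5. With each array centred on one shared median instead of quantiles the split was 28 higher and 1 lower, and all tested probes then had a median of 0.11. Without iPS EB replicate 1 there were 28 higher and 18 lower, and without iPS EB replicate 2 there were 51 higher and 4 lower. With only the 2 EB groups in the fit, 20 were higher and 5 lower. Single cultures decided some members that were not called over all: without iPS EB replicate 2, Ildr2 (0.99), Amer2 (0.75) and Map2 (0.71) passed as higher, and without iPS EB replicate 1, Miat (-1.14) and Pantr1 (-0.79) passed as lower.

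Lhx1, a LIM homeobox factor of the early organizer and kidney, had the largest difference between lines. It stood at 9.91, 10.26 and 10.16 in iPS EB and at 7.17, 6.24 and 6.37 in ES EB. The groups lay far apart (log2 difference 3.52, SE 0.36, adjusted p = 2.7e-06), and its second probe differed by 2.89 (SE 0.36, adjusted p = 2.2e-05). Cyp26a1, which breaks down retinoic acid, had 7.28, 7.65 and 7.70 in iPS EB and 6.04, 5.24 and 5.36 in ES EB. No arrays overlapped here either, and the difference was 2.00 (SE 0.29, adjusted p = 9.4e-05). Foxq1, a forkhead factor, had 9.04, 9.23 and 9.22 in iPS EB and 7.02, 7.58 and 7.58 in ES EB, a difference of 1.77 (SE 0.33, adjusted p = 0.00078). Foxa1, a forkhead factor of endoderm, had 8.41, 7.35 and 7.84 in iPS EB and 5.83, 6.33 and 6.25 in ES EB. It differed by 1.73 (SE 0.19, adjusted p = 6.1e-06), again without overlap.

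In the endoderm role group, drawn up after the values were known, 4 of 6 probes were called higher in iPS EB (Spink1, Foxa1, Pga5 and Cyp26a1) and none lower. Of these, Pga5 and Cyp26a1, the retinoic acid enzyme above, are in no marker list. The Spink1 values given above did not overlap between lines (difference 1.80, SE 0.25, adjusted p = 6.4e-05). Pga5, a pepsinogen, differed by 1.72 (SE 0.44, adjusted p = 0.008). Ttr and Apoa1 did not pass (differences -0.04 and -0.32, adjusted p = 0.98 and 0.63). The visceral endoderm list had 6 of 24 tested probes higher and 4 lower, against 12.8% and 12.9% of all tested probes. Its summed level was 12.07 to 12.76 in iPS EB, 11.24 to 11.70 in ES EB and 12.16 to 12.24 on the fibroblast arrays. This sum weights bright probes, and Spink1, the brightest of the list in EB, had means of 11.59 in iPS EB and 9.79 in ES EB.

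Keratins 8 and 18, which pair in simple epithelia, were called higher in iPS EB. Krt8 had 10.46, 10.55 and 10.90 in iPS EB and 10.36, 7.92 and 7.99 in ES EB, and Krt18 had 8.86, 9.18 and 9.36 in iPS EB and 9.10, 6.86 and 6.63 in ES EB. One ES EB culture, replicate 1, reached or approached the iPS EB values for both, and also had the highest Krt14. Krt8 differed by 1.88 (SE 0.43, adjusted p = 0.0036) and by 2.68 without ES EB replicate 1, while Krt18 differed by 1.61 (SE 0.41, adjusted p = 0.0086) and did not pass without ES EB replicate 2 or replicate 3 (adjusted p = 0.059 each). With only the 2 EB groups in the fit neither passed (adjusted p = 0.084 for Krt8 and 0.12 for Krt18). Krt14 did not pass (difference -0.81, adjusted p = 0.094), though it did without ES EB replicate 2 (-1.16, adjusted p = 0.025). The epithelial list, which holds Krt8 and Krt18, had 4 of 8 tested probes higher and 0 lower in iPS EB (12.8% and 12.9% of all tested probes). Its summed level was 11.66 to 11.96 in iPS EB and 9.56 to 11.47 in ES EB.

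Among imprinted members, both Dlk1 probes and both Peg3 probes were called higher in iPS EB, and the Mest and Nnat probes were not called. Peg3, a zinc finger protein made from the paternal copy, had 10.68, 10.89 and 11.83 in iPS EB and 10.30, 9.54 and 9.91 in ES EB. The arrays did not overlap, and the difference was 1.22 by either probe (SE 0.25 for the probe given, adjusted p = 0.0018). The Dlk1 values above differed by 0.76 (SE 0.20, adjusted p = 0.01), which did not pass without iPS EB replicate 3 (adjusted p = 0.06). Its second probe differed by 1.02 (SE 0.24, adjusted p = 0.0049).

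In the neuronal and guidance group 6 of 21 probes were called higher and 0 lower in iPS EB. Of the 6, 3 were for Slit2 (differences 1.02, 0.93 and 0.39, adjusted p = 0.0065, 0.0026 and 0.036). With only the 2 EB groups in the fit the first of these did not pass (adjusted p = 0.065). Of 26 transcription factor probes 6 were higher and 1 lower. Among all 134 members 25.4% were higher and 5.22% lower, and among all tested probes 12.8% and 12.9%. Otx1 differed by 0.86 (SE 0.27, adjusted p = 0.028) but passed in neither the fit of the 2 EB groups alone (adjusted p = 0.14) nor without any of 4 single EB cultures: ES EB replicate 1 or 2, or iPS EB replicate 1 or 3 (adjusted p = 0.058 to 0.16). Sox9, Zic1 and the Sox11 probe ILMN_1235647 did not pass (differences -0.04, 0.03 and 0.35, adjusted p = 0.95, 0.98 and 0.21), though Zic1 differed by -0.67 without iPS EB replicate 1 (adjusted p = 0.007).

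Lower in iPS EB were Ptn, Lum, Emcn, Sh3pxd2b, Irx2 and 2 unnamed probes. Ptn (pleiotrophin, a heparin-binding growth factor) had 9.22, 8.55 and 9.51 in iPS EB and 10.99, 10.27 and 10.19 in ES EB. It differed by -1.39 (SE 0.38, adjusted p = 0.011), and did not pass without iPS EB replicate 2 (adjusted p = 0.053). Lum (lumican, a collagen-binding proteoglycan) had 8.37, 7.89 and 8.28 in iPS EB and 9.38, 9.00 and 9.17 in ES EB, a difference of -1.00 (SE 0.25, adjusted p = 0.0076), while its other member probe differed by -0.42 and did not pass (adjusted p = 0.12). Emcn had 6.73, 6.16 and 6.55 in iPS EB and 6.93, 7.41 and 7.73 in ES EB, a difference of -0.88 (SE 0.16, adjusted p = 0.00086). The arrays did not overlap for the Ptn and Emcn probes and this first Lum probe, and none of these passed under median scaling (adjusted p = 0.13, 0.095 and 0.05 for Ptn, Lum and Emcn).

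The endothelial list, which holds Emcn, had 10 of 15 tested probes lower and 1 higher in iPS EB (12.9% and 12.8% of all tested probes). Some genes had several of these probes. The higher probe, Flt1, had the largest difference of the list in either direction (2.87, adjusted p = 3.6e-07). The summed level of the list was 10.59 to 10.95 in iPS EB and 10.80 to 11.17 in ES EB. The list also had 8 of 15 lower and 1 higher in iPS cells against ES cells (10.1% and 9.47% of all tested probes), where Emcn was not detected. The fibroblast and mesenchyme list, which holds Lum, had 9 of 28 lower and 1 higher, with summed levels of 11.56 to 12.37 in iPS EB and 12.43 to 12.62 in ES EB. Neither list was at background on any EB array, although Cdh5 of the endothelial list averaged 4.58 in iPS EB and 5.47 in ES EB. The pluripotency list, which holds no member, had 10 of 27 tested probes lower and 3 higher in iPS EB. Its summed level was 13.74 to 14.86 in iPS EB and 14.94 to 15.58 in ES EB. The part of cell composition in the differences between lines, those of Emcn and Lum among them, was not tested. The unnamed probe ILMN_1256317 had the largest fall, with 5.56, 4.69 and 6.38 in iPS EB and 9.46, 7.65 and 7.56 in ES EB (difference -2.68, adjusted p = 0.00011), and was not detected on any array outside EB.

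Undifferentiated cells of the lines already differed for part of these members. In iPS cells 27 members (20.1%) were higher and 4 lower than in ES cells, where 9.47% of all tested probes were higher and 10.1% lower (19.6% in either direction). The 17 members called higher in iPS at both stages (12.7%, against 4.37% of all tested probes) include both probes of Lhx1 and of Peg3, with Foxq1, Krt8, Spink1, Cyp26a1, Has2 (hyaluronan synthase), En1, Sall3, Igdcc3, Sema3f, St6gal1, Asxl3, 1 Slit2 probe and 1 unnamed probe. Another 17 were called higher in EB with no call in undifferentiated cells (12.7%, against 8.23%), among them Foxa1, Krt18, Pga5, Otx1 and both Dlk1 probes. Of the 7 members lower in iPS EB, 6 had no call in undifferentiated cells (4.48% of the 134 members, against 7.45% of all tested probes). The other, Lum, was called the other way there (0.746% of the members, against 0.347%). A member called at 1 stage and not at the other is not thereby shown to differ between stages, and that difference was not tested. The rule ties EB of each line to its undifferentiated cells, so line differences at the 2 stages are linked among members. The shares for both stages together are thus a description. Under median scaling 12 members were higher and 0 lower in iPS cells than in ES cells. Without iPS replicate 1 there were 17 higher and 5 lower, and without any one of iPS replicates 2 and 3 and ES replicates 2 and 3 there were 20 to 26 higher and 2 lower.

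Lhx1 had 8.51, 6.78 and 7.06 in iPS cells, against 4.21, 4.21 and 4.17 in ES cells, where no array detected it. The difference was 3.26 (adjusted p = 8.5e-06), with no overlap. Peg3 had 9.80, 9.56 and 9.83 in iPS cells and 7.86, 7.41 and 7.93 in ES cells (difference 2.00, adjusted p = 2.8e-05). Foxq1 had 8.17, 6.73 and 6.84 in iPS cells and 5.26, 4.30 and 5.66 in ES cells (difference 2.17, adjusted p = 0.00018). Its arrays did not overlap. The culture iPS replicate 1 was the highest of its group for 76 members (56.7%, against 34.5% of all tested probes).

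Both Lum probes, Pdgfra and 2 of 3 Ccnd2 probes were also called higher in iPS cells. Lum had 7.08, 5.91 and 5.65 in iPS cells and 4.54, 4.46 and 4.20 in ES cells (difference 1.82, adjusted p = 8.3e-05), and Pdgfra had 6.71, 5.48 and 5.81 in iPS cells and 5.16, 4.27 and 4.49 in ES cells (difference 1.36, adjusted p = 0.014). In both genes iPS replicate 1 was highest. Both Igfbp4 probes were lower in iPS cells (differences -0.96 and -0.78, adjusted p = 0.035 and 0.045), so that 4 of the 10 mesenchyme and matrix probes were higher and 2 lower. The fibroblast and mesenchyme list had 8 of 28 tested probes higher and 0 lower in iPS cells, with a summed level of 11.49 to 12.77 in iPS cells and 10.99 to 11.19 in ES cells. Undifferentiated cells grew on fibroblast feeders, and the feeders' part in these values was not tested.

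Between CM of the 2 lines 12 members were higher and 9 lower in iPS CM, where 11.4% of all tested probes were higher and 11.8% lower (23.2% in either direction). Only Sall3, both Peg3 probes and 1 unnamed probe were called higher in the iPS line at all 3 stages (2.99%, against 1.89% of all tested probes). Peg3 had 8.44, 8.72 and 9.05 in iPS CM and 7.63, 7.63 and 7.59 in ES CM (difference 1.12, adjusted p = 0.0035). Both Mdk probes were higher in iPS CM (0.86 and 0.89), and Sox9 (-0.94) and 2 Mest probes (-1.03 and -1.00) were lower. Under median scaling 5 were higher and 2 lower, and without iPS CM replicate 3 there were 7 higher and 9 lower.

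The rule held both CM and undifferentiated cells at least 1 below EB, so calls between them rest on values it limited, and the counts are a description from which nothing is read. In iPS CM 9 members were higher and 57 lower than in iPS cells, where 32.7% of all tested probes were higher and 33.6% lower (66.3% in either direction). In ES CM 16 were higher and 36 lower than in ES cells (33.2% and 33.0% of all tested probes, 66.2% in either direction). In both lines 31 members were lower in CM (23.1%, against 26.6% of all tested probes) and 7 were higher (5.22%, against 26.8%). Lower in both were Dlk1, Spink1, Krt8, Krt18, Mdk, Ramp2, Fez1, Pga5 and others. Higher in both were 2 probes of Ccnd2, a G1 cyclin, with Klhl6, Tcf12, Nsd2 and 2 unnamed probes.

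Mdk (midkine, a heparin-binding growth factor) is an example of the first kind, with 7.99, 7.54 and 8.97 in iPS CM against 10.94, 10.63 and 10.59 in iPS cells, and 7.10, 7.44 and 7.28 in ES CM against 10.78, 10.97 and 10.74 in ES cells. CM and undifferentiated arrays did not overlap in either line. Ccnd2 went the other way, with 9.19, 9.20 and 9.62 in iPS CM against 8.86, 7.55 and 7.71 in iPS cells (difference 1.30), and 8.78, 8.35 and 8.46 in ES CM against 7.36, 7.41 and 7.03 in ES cells (difference 1.26). These arrays did not overlap either. With median scaling the ES line had 11 higher and 19 lower, and without iPS EB replicate 2, which enters only the shared spread, the iPS line had 14 higher and 62 lower.

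Adult fibroblasts took no part in the rule, although the EB side of the comparison was chosen as high, which partly fixes the direction. In iPS EB 87 members were higher and 17 lower than in fibroblasts (25.9% and 22.7% of all tested probes, 48.7% in either direction), and in ES EB 88 were higher and 22 lower (27.0% and 24.6%, 51.6% in either direction). The median difference over members was 1.81 in the iPS line and 1.64 in the ES line, against 0.08 and 0.06 over all tested probes. In both lines 83 members (61.9%, against 19.9%) were higher and 17 (12.7%, against 19.8%) lower. The fibroblast arrays entered as 1 averaged sample, whose spread is taken from the other groups, since the sources disagree on whether they are separate cultures. Entered as 3 samples, they gave 93 members higher and 21 lower in iPS EB, and 91 higher and 26 lower in ES EB. Under median scaling all tested probes had a median of -0.18 for ES EB against fibroblasts.

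Roles differed in this comparison. All 8 imprinted, all 6 endoderm, all 3 keratin and both endothelial probes were higher in EB of both lines, as were 16 of 26 transcription factor and 12 of 21 neuronal and guidance probes. Of 10 mesenchyme and matrix probes none was higher in either line and 7 were lower in both. The role groups were drawn up after the values were known and are a description. Spink1 had 4.19, 4.16 and 4.17 on the fibroblast arrays, where it was not detected, and was at least 126-fold higher in iPS EB and at least 36-fold higher in ES EB. Mdk had 5.05, 5.02 and 6.03 on the fibroblast arrays, against 12.25, 11.93 and 12.61 in iPS EB and 11.92, 11.97 and 11.83 in ES EB (differences 6.90 and 6.54, adjusted p = 7.7e-11 and 1.7e-10). Peg3 had 4.72, 4.90 and 4.48 on the fibroblast arrays, far under its EB values (differences 6.43 in the iPS line and 5.21 in the ES line, adjusted p = 1.5e-10 and 2.5e-09).

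Members below fibroblasts were led by Col3a1, Igfbp4 and Ctsh. Col3a1 had 10.52, 10.48 and 10.70 on the fibroblast arrays, above every EB array (differences -3.80 in the iPS line and -3.56 in the ES line, adjusted p = 1.7e-07 and 3.7e-07). Igfbp4, a binding protein of insulin-like growth factors, had 8.07, 7.65 and 8.80 in iPS EB and 9.06, 8.50 and 8.75 in ES EB, against 11.74, 11.73 and 11.74 on the fibroblast arrays (differences -3.57 and -2.97, adjusted p = 2.6e-06 and 1.9e-05). Ctsh, the lysosomal protease cathepsin H, had 6.43, 7.59 and 6.55 in iPS EB and 6.69, 6.73 and 6.45 in ES EB, against 9.79, 10.02 and 9.58 on the fibroblast arrays (differences -2.94 and -3.17, adjusted p = 1.4e-05 and 5.9e-06). These genes peaked in EB among the stem cell derived groups and not once fibroblasts are counted. All 18 tested macrophage and leukocyte probes were also lower in EB of both lines than in fibroblasts, with a summed level of 9.01 to 9.27 in iPS EB and 10.18 to 10.32 in ES EB, against 15.05 to 15.36 on the fibroblast arrays, and their part in the Ctsh result was not tested.

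EB cultures of one line varied in which members were high. The SD of a member among 3 cultures had a median of 0.53 in iPS EB and 0.22 in ES EB, against 0.17 and 0.15 over all tested probes, and it was largest for Ttr in iPS EB (1.74) and for Krt8 in ES EB (1.39). Replicate 2 of iPS EB was the lowest of its group for 97 of 134 members (72.4%, against 34.1% of all tested probes). It was lowest for 19 of 21 neuronal and guidance, 21 of 26 transcription factor and 9 of 10 mesenchyme and matrix probes, but for 1 of 6 endoderm and 0 of 3 keratin probes. Replicate 1 of iPS EB was the highest for 18 of 21 neuronal and guidance probes and the lowest for all 3 keratins and for 3 of 6 endoderm probes, which include Ttr and Apoa1. In the ES line, replicate 1 of EB was the highest for all 3 keratins and for 9 of 10 mesenchyme and matrix probes, and replicate 2 was the lowest for all 10 mesenchyme and matrix probes.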

How the data were processed

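RNA was prepared with TRIzol, and biotin-labelled cRNA was made by an Ambion kit for Illumina arrays, per the labels' protocols. Per the file headers, each array has 2 columns in the deposited non-normalized table, average signal intensity and detection p-value. By its name this deposited intensity is not normalized. Whether background was subtracted is not given in the labels, and its lowest value is 15.0. A second deposited table holds normalized intensity. Its 45281 rows match the quantile normalized first table by value (largest log2 distance 6.87e-10), while only 3 pairs share an identifier and the correlations by identifier lie between -0.00214 and 0.00786. For both tables the software was not given in the sources used here.

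Members were chosen on quantile normalized log2 intensity. Levels and tests used limma 3.58.1 (R 4.3.3, with Python 3.11.15 for tables): neqc with an offset of 16, which understates changes of dim probes, then lmFit and eBayes on the 21047 probes that 3 or more of 21 arrays detected (p under 0.01), with 1 mean per group over 19 samples (12 residual degrees of freedom) and Benjamini-Hochberg adjustment per comparison. Where no array of a group detected a probe, it has a bound there, the lowest signal among detected probes of each array or the probe's own where higher, and folds against it are "at least". Summed marker levels are log2 of summed linear values.

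Genes came from the platform annotation: 34885 probes have 1 symbol, 18 several and 10378 are not listed, and all 114 named member probes match RefSeq by Entrez ID. Named genes were, by rule, the 15 largest excesses in EB, all members of the marker lists, the 5 highest and 5 lowest called differences of iPS EB and ES EB without overlap (3 lowest had a name), and the 3 highest and 3 lowest against fibroblasts, 1 probe a gene. Other members were named after their values were seen. Members, lists and roles were chosen with earlier results of these data known.

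Per the labels, samples of a line with the same number share a passage and EB and CM a batch, so numbers pair samples within lines. Their deviations from group means correlated between -0.177 and 0.217. Between lines the numbers share nothing. In simulated data for iPS EB against ES EB over 21047 probes, 22.4%, 80.6% and 98.5% of probes changed by 0.5, 1 and 2 (log2) were called, with 6 false calls. The simulation drew changed probes from all tested probes and gave each probe 1 SD in all groups. Members had a larger SD in iPS EB (median 0.53, against 0.17 over all tested probes), so these rates need not hold for members. The number of arrays limits the precision. Unless only the compared groups are in the fit, each p-value uses 1 spread per probe, shared by all groups, between cultures of 1 line each. For iPS EB against ES EB it thus does not measure the spread of the EB cultures alone. Alternatives covered background correction, scaling, the authors' table, filters, samples in the fit, replicate blocks and each sample left out.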

Additional observations from a re-analysis of the deposited data

Results flagged for a closer look

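The Lum probe ILMN_3001540 differed between lines in opposite directions at the 2 stages. Its level was lower in every iPS EB culture than in every ES EB culture (difference -1.00), and higher in every iPS culture than in every ES culture (difference 1.82). The difference between these 2 differences was not tested. Sums of the fibroblast and mesenchyme markers on every iPS EB array were also below those of every ES EB array, and on every iPS array above those of every ES array.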

How the results depend on the processing

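The Zic1 difference of iPS EB and ES EB, 0.03 over all cultures, was -0.67 without iPS EB replicate 1 and between -0.17 and 0.38 without any other culture, and no other result that passed under either setting turned its sign in the alternatives run. Among the 16 differing values, the members called for iPS EB against ES EB were 25 with only the compared groups in the fit, in place of 41. Under median scaling 12 in place of 31 were called for iPS against ES cells, 7 in place of 21 for iPS CM against ES CM, and 30 in place of 52 for ES CM against ES cells. The cause was not tested. A margin of 0.5 gave 412 members and one of 2 gave 17, since the margin sets the list. The median member level without background correction was 7.22 in ES EB, 4.94 in iPS CM, 4.93 in ES CM, 5.44 in iPS cells, 5.04 in ES cells and 5.36 in fibroblasts. Under median scaling it was 7.03 in ES EB, 4.39 in ES CM, 4.90 in iPS cells and 5.26 in fibroblasts. Leaving out 1 sample gave 31 to 55 called members for iPS EB against ES EB, 22 to 35 for iPS against ES cells, 15 to 25 for iPS CM against ES CM, 61 to 76 for iPS CM against iPS cells, 41 to 56 for ES CM against ES cells, 104 to 108 for iPS EB against fibroblasts and 106 to 114 for ES EB against fibroblasts, with 127 to 147 members under the rule. A fixed replicate block, which joined equal numbers across the lines, gave 41, 30, 22, 66, 52, 105 and 109 calls in the same order of comparisons. A random block by line and number gave 41, 31, 21, 66, 52, 104 and 110. Neither moved any count by over 1.5 times. With only the compared groups, iPS EB against fibroblasts had 70 calls. Applied to neqc values the rule gave 173 probes, all 134 members among them, and to median-scaled arrays 200, with 131 members among them. Over the named genes 1055 of the single results kept their side of the threshold, 16 no longer passed, 6 newly passed and 1 turned (Zic1).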
